A study of Mus musculus with 8 samples.

Results

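The 10 genes described here organise the B cell follicle of the spleen or mark its B cell subsets: Cr2, Fcer2a, Cxcr5, Cxcl13, Ltb, Lta, Tnfrsf13c, Tnfsf13b, Madcam1 and Notch2. They were taken by name from the 24203 gene names on a 1-colour NimbleGen expression array, and 19 of its 44170 features carry these names. A feature is a set of probes, 3 for nearly all of them, summarised to 1 intensity. Of the 10 genes, 5 had a single feature and 5 had several, for which the feature with the highest mean over the 8 arrays was used. Total RNA came from spleens of 4 mir-155 knockout mice, Mim1-5 and Mim1-6 labelled female and Mim2-2 and Mim2-3 labelled male, and values below are given in this order. Spleens of 4 wild-type mice, WT-1 and WT-3 labelled female and WT-2 and WT-4 labelled male, were the reference. The labels give no age, strain, treatment or allele. In the knockout group all Mim1 mice are labelled female and all Mim2 mice male, so these cannot be told apart there. Each array was taken as 1 animal, since the series describes separate spleens, with n = 4 per genotype.

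In the spleen, B cells gather in follicles because they carry the receptor CXCR5 and follow its ligand CXCL13, which is made by follicular dendritic cells and other stromal cells. B cells in turn make lymphotoxin, which keeps those stromal cells in place, and they depend on BAFF, a survival factor read by the BAFF receptor. Around the follicle lie the marginal sinus, whose lining cells carry the adhesion molecule MAdCAM-1 in mice, and the marginal zone, whose B cells carry much CD21, the product of Cr2, and need NOTCH2 to form. Mature follicular B cells carry CD23, the product of Fcer2a. miR-155 is a microRNA of activated lymphocytes and myeloid cells that binds messages through its seed. Its mature sequence in RefSeq (build GRCm38.p6, chr16:84714143-84714165, plus strand) is shown because it is what the knockout is labelled to lack, with the seed, bases 2 to 8, in capitals.
mmu-miR-155-5p: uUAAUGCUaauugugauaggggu

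Some facts of the whole series bear on every value below. BIC, the transcript that carries miR-155, read log2 7.51 in Mim1-5 and 5.28 to 5.46 on the other knockout arrays, against 4.84 to 5.63 on the wild-type arrays, near the random probes at 4.94 to 5.24. The labels do not say which bases are deleted, so this feature is no check of the knockout. Xist, transcribed from the inactive X chromosome, read 8.35 to 11.1 on all 8 arrays. Ddx3y, a Y-linked helicase gene, averaged 7.76 on arrays labelled male and 7.82 on those labelled female (exact permutation test, two-sided, p = 0.914), so the labelled sexes were not separated by it. It averaged 8.66 on knockout and 6.91 on wild-type arrays (exact permutation p = 0.0286). Median intensities were 112.1 to 119.1, and 81.1% to 85.1% of features lay above the random probes. The Mim2-2 and Mim2-3 arrays stood apart, with correlations of 0.811 to 0.877 to the other 6 over all features, against 0.911 to 0.943 among those 6. The correlation between Mim2-2 and Mim2-3 was 0.874, within their range to the other 6, so they were not a close pair. Genes typical of other tissues were measured on these arrays too. A list of 18 mammary epithelium and milk genes had a mean log2 intensity of 10.05 and 9.79 in the Mim1 and 7.77 and 8.84 in the Mim2 knockout animals, against 10.62 to 10.95 in wild type. The mean of 9 pancreatic enzyme genes was 6.85 to 7.91 on knockout and 5.56 to 5.95 on wild-type arrays. Adipocyte genes averaged 10.99 in Mim2-2 and 10.30 in Mim2-3, with 7.24 to 7.32 on the Mim1 arrays and 7.38 to 7.59 in wild type. The part of these tissues in the differences below was not tested, except where a value is given.

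The comparison of knockout with wild-type spleen asks which of these genes differ when the animals are labelled as lacking miR-155. All 10 had a difference above 0, with a median of 1.02 on the log2 scale, where 52.2% of all features were above 0 and their median was 0.03. Cr2, Cxcr5, Cxcl13, Tnfrsf13c, Madcam1 and Ltb read higher on every knockout array than on every wild-type array, 6 of 10 genes, which held for 4.7% of all features. None passed limma's test after Benjamini-Hochberg adjustment over all features, in which 0 of 44170 features (0.0%) passed. At an unadjusted p under 0.05, 6 of the 10 were higher and 0 lower, against 6.98% and 6.88% of all features, 6122 features or 13.9% in all. All 10 genes lay above the random probes on all 8 arrays. In bulk RNA, more cells of a type and more RNA per cell cannot be told apart.

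**Figure D1:**
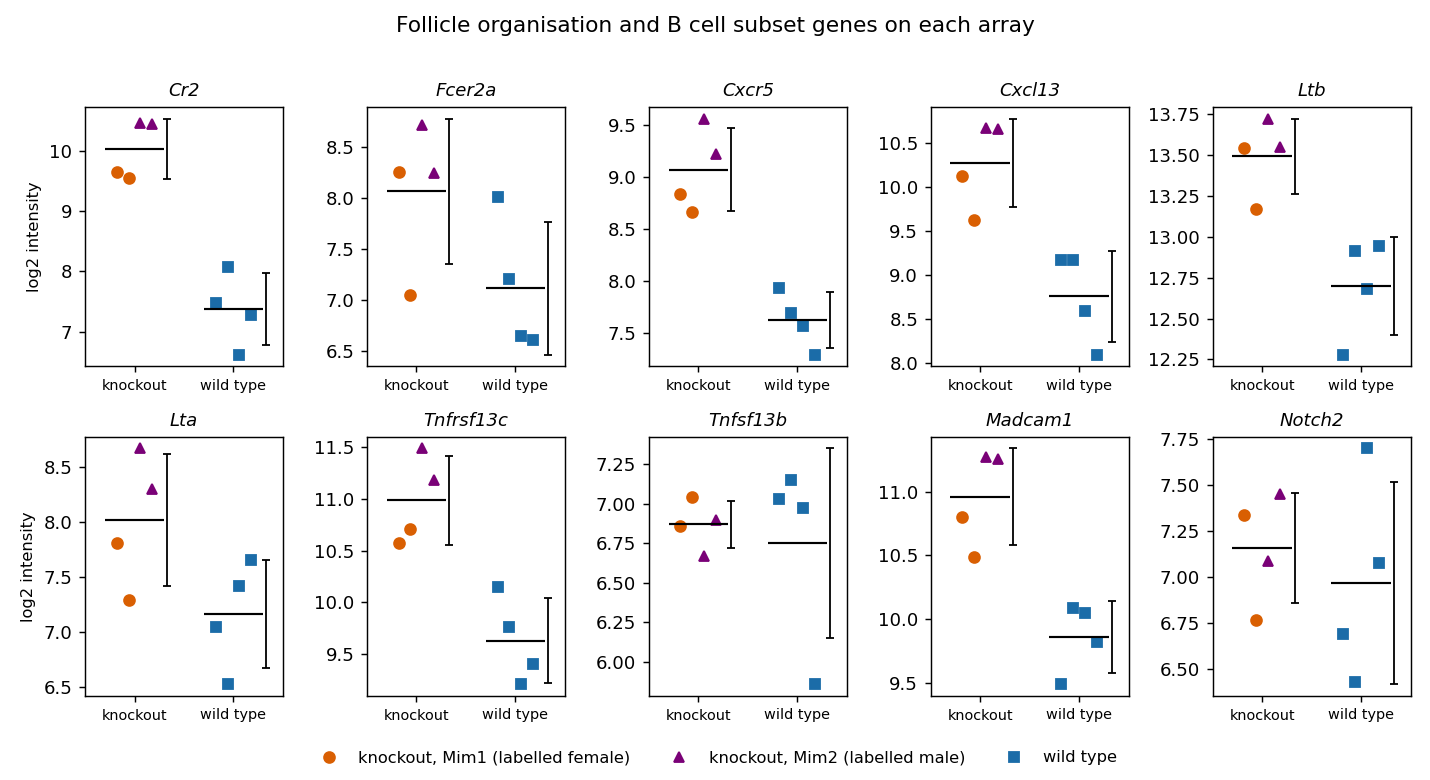
Log2 intensity of each gene on each array, knockout arrays left (circles Mim1, triangles Mim2) and wild-type arrays right (squares). Horizontal lines are group means and the bars beside them are 1 SD (n = 4), and each panel has its own axis. For Cr2, Cxcr5, Cxcl13, Ltb, Tnfrsf13c and Madcam1 every knockout array sits above every wild-type array.

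Cr2 encodes complement receptor 2, which on B cells lowers the threshold for antigen coated with complement and on follicular dendritic cells holds immune complexes. The feature lies on chromosome 1 from 196963004 to 197002909 (build MM9). On the log2 scale Cr2 read 9.64 and 9.55 in the Mim1 and 10.46 and 10.45 in the Mim2 knockout animals, against 7.48, 8.08, 6.62 and 7.28 in wild-type animals WT-1 to WT-4. The lowest knockout array thus stood 1.47 above the highest wild-type array. Cr2 averaged 10.03 ± 0.50 in knockout and 7.37 ± 0.60 in wild type (SD, n = 4 each), a difference of 2.66 ± 0.32 (SE) or 6.32-fold, with a 95% interval of 3.84 to 10.4-fold. This was the second smallest p of all 44170 features, with a limma adjusted p of 0.262 and an exact permutation p of 0.0286, the smallest that 4 against 4 arrays allow. With a mean-variance trend and robust variances in limma, the adjusted p was 0.0285. Over all alternatives it ran up to 0.801 without both Mim2 arrays, and down to 0.0188 with the pan B cell mean described below subtracted from every feature. In that last fit the Cr2 difference fell to 1.44 and its unadjusted limma p rose from 1.44e-05 to 0.00239. The subtraction lowers every feature in the knockout, and Tnfsf13b and Notch2 also passed there, as lower, at adjusted p-values of 0.0341 and 0.0471. The value of 0.0188 is thus no stronger result for Cr2.

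Fcer2a encodes CD23, the low-affinity receptor for IgE. The feature on chromosome 8 from 3682501 to 3691179 read 8.26 and 7.05 in the Mim1 and 8.72 and 8.25 in the Mim2 knockout animals, against 8.01, 7.21, 6.65 and 6.61 in wild-type animals WT-1 to WT-4. The groups overlapped, since Mim1-6 lay below WT-1 and WT-2. The difference of 0.95 ± 0.46 (SE), with a 95% interval of -0.08 to 1.99, had an adjusted p of 0.390 in limma and an exact permutation p of 0.0857. Its other features differed by 0.54, 0.25 and -0.36, and the last was above the random probes on 1 knockout and 3 wild-type arrays. The sign thus depended on the feature.

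Of the chemokine pair, Cxcl13 encodes the ligand and has its feature on chromosome 5 from 96385969 to 96390087. It read 10.13 and 9.63 in the Mim1 and 10.68 and 10.66 in the Mim2 knockout animals, against 9.17, 9.18, 8.59 and 8.10 in WT-1 to WT-4. Both Mim2 arrays were highest, WT-3 and WT-4 were lowest, and the groups did not overlap. The difference was 1.51 ± 0.37 (SE) or 2.86-fold (limma adjusted p = 0.262, exact permutation p = 0.0286). Cxcr5, its receptor on B cells and follicular helper T cells, has its feature on chromosome 9 from 44319869 to 44334504. It read 8.84, 8.66, 9.56 and 9.22 in the knockout animals in the order above, against 7.93, 7.69, 7.56 and 7.29 in the wild-type animals. Here too the Mim2 arrays were highest and the groups did not overlap. The difference of 1.45 ± 0.31 (SE), 2.74-fold, had an adjusted p of 0.262 and an exact permutation p of 0.0286.

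Lymphotoxin is made of an alpha chain, encoded by Lta, which is secreted as a trimer, and a beta chain, encoded by Ltb, which anchors the alpha chain to the membrane. The genes are neighbours on chromosome 17, Ltb from 35331466 to 35333250 and Lta from 35340107 to 35342296, with 6857 bases between their features, where Tnf lies. Ltb read 13.54 and 13.17 in the Mim1 and 13.72 and 13.55 in the Mim2 knockout animals, against 12.28, 12.91, 12.68 and 12.94 in WT-1 to WT-4. Its groups did not overlap, and Mim1-5 nearly equalled Mim2-3. The difference was 0.79 ± 0.27 (SE) or 1.73-fold (limma adjusted p = 0.296, exact permutation p = 0.0286). Lta read 7.81, 7.29, 8.67 and 8.30 in the knockout animals, against 7.05, 6.53, 7.42 and 7.66 in the wild-type animals. Mim1-6 lay within the wild-type range, and the difference of 0.85 ± 0.38 (SE) had an adjusted p of 0.362 and an exact permutation p of 0.0857. It was 0.52 without WT-2. A dimmer Lta feature differed by 0.12.

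The BAFF receptor, encoded by Tnfrsf13c, carries the survival signal of mature B cells. Its feature on chromosome 15 from 82052174 to 82054769 read 10.57 and 10.71 in the Mim1 and 11.49 and 11.18 in the Mim2 knockout animals, against 10.15, 9.76, 9.21 and 9.40 in WT-1 to WT-4. No array of one genotype lay within the range of the other, and the gap between the nearest arrays, Mim1-5 and WT-1, was smaller than that of Cr2. The difference was 1.36 ± 0.33 (SE) or 2.56-fold (limma adjusted p = 0.262, exact permutation p = 0.0286), and a second feature differed by 1.44 with the same exact p. Its ligand BAFF, encoded by Tnfsf13b and made mainly by myeloid and stromal cells, read 6.86, 7.04, 6.67 and 6.90 in the knockout animals, against 7.03, 7.15, 6.97 and 5.86 in the wild-type animals. The ranges overlapped, and WT-4 lay below all other arrays. Its difference was 0.12 ± 0.34 (SE), with a 95% interval of -0.64 to 0.88 and an adjusted p of 0.900 in limma. The other Tnfsf13b features differed by 0.47, -0.24 and -0.17.

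Madcam1, the addressin bound by the integrin alpha4 beta7, has its feature on chromosome 10 from 79127341 to 79131282. It read 10.80 and 10.49 in the Mim1 and 11.27 and 11.26 in the Mim2 knockout animals, against 9.49, 10.09, 10.05 and 9.82 in WT-1 to WT-4. The lowest knockout array lay above the highest wild-type array. The difference was 1.09 ± 0.28 (SE) or 2.13-fold (limma adjusted p = 0.266, exact permutation p = 0.0286), and a second feature differed by 0.94 (exact permutation p = 0.0571). Notch2, the receptor that directs B cells to the marginal zone fate, lies on chromosome 3 from 97817460 to 97904582. It read 7.34, 6.77, 7.09 and 7.45 in the knockout animals, against 6.69, 6.43, 7.70 and 7.08 in the wild-type animals. The knockout range lay within the wild-type range, and the difference of 0.19 ± 0.35 (SE) had a 95% interval of -0.61 to 0.99 and an adjusted p of 0.838 in limma.

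The promoters of the genes that read higher on every knockout array are shown for Cr2, Cxcl13, Ltb, Madcam1 and Tnfrsf13c, as the 250 bases before the start of the RefSeq gene in build GRCm38.p6, read 5′ to 3′ on the gene's strand. RefSeq promoters matched 9 of the 10 genes, with 12 starts in all, and none for Cxcr5. Capitals mark 3 motifs searched on both strands: GGG and CC with any 5 bases between them, the loose form of the NF-kappaB site, TGGGAA, the core bound by RBPJ downstream of Notch, and ATGCAAAT, the octamer of B cell promoters. Where motifs overlap, the capitals run together.
Cr2, chr1:195176720-195176969, minus strand: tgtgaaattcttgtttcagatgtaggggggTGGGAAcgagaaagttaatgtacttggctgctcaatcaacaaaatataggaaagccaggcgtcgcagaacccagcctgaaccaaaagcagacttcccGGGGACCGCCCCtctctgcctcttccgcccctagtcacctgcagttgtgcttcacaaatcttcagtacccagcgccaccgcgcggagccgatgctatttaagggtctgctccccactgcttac
Cxcl13, chr5:95956689-95956938, plus strand: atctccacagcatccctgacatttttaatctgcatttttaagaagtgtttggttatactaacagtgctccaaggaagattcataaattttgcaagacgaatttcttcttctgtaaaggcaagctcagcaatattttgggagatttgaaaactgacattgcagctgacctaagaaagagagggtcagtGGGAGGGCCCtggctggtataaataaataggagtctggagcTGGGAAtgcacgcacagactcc
Ltb, chr17:35194257-35194506, plus strand: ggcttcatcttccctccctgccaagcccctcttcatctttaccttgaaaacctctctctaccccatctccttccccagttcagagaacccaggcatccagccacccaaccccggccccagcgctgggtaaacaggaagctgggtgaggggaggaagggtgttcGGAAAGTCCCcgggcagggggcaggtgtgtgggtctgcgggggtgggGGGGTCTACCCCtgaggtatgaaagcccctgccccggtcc
Madcam1, chr10:79664309-79664558, plus strand: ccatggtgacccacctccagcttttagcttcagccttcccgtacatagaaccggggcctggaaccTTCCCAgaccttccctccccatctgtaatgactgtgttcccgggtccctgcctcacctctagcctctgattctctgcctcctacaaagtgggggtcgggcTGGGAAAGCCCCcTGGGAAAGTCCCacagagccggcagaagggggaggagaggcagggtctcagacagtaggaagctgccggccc
Tnfrsf13c, chr15:82224381-82224630, minus strand: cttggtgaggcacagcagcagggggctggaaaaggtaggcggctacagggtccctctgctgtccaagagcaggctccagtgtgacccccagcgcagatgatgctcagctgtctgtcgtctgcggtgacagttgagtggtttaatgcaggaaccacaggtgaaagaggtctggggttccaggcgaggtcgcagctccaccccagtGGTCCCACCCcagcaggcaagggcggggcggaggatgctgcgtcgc
In the Madcam1 promoter GGGAAAGCCC begins 84 bases and GGGAAAGTCC 71 bases before the start, each overlapping a TGGGAA. Cr2 has overlapping matches that begin 123, 122 and 121 bases before its start, Cxcl13 has GGGAGGGCCC at 63 bases, Ltb has GGAAAGTCCC at 87 bases and Tnfrsf13c has GGTCCCACCC at 46 bases. The loose NF-kappaB motif was in 8 of the 12 promoters, against 45.8% of 32851 promoters of the same length. TGGGAA was in 6 of the 12, against 21.6% of them, and the octamer in 0 of the 12, against 1.6%. Fcer2a and Tnfsf13b count with several starts each, and TGGGAA was in more than 1 start of Fcer2a. These matches describe the letters and show no binding.

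Within the labelled sexes, all 10 genes averaged higher in Mim2 than in the wild-type males, where 54.0% of features did, and 8 of 10 averaged higher in Mim1 than in the wild-type females, where 51.6% did. The median difference was 1.48 for Mim2 against wild-type males, where all features had 0.09, and 0.87 for Mim1 against wild-type females, where all features had 0.02. Cr2 and Cxcr5 rose in Mim2 against wild-type males, by 2.77 (limma adjusted p = 0.0268) and 1.91 (adjusted p = 0.0368), where 1875 of 44170 features, 4.24%, passed. Of these features 397 were higher and 1478 lower, and each label has 2 arrays per genotype. With array weights Cr2 kept its call at an adjusted p of 0.0387 and Cxcr5 lost it at 0.052. With both Mim1 arrays left out of the fit, the same differences had adjusted p-values of 0.0537 and 0.0637 in limma, so neither passed. In the fit of all 8 arrays Cxcl13 differed by 2.03 (adjusted p = 0.0549) and Tnfrsf13c by 1.76 (adjusted p = 0.0611). In Mim1 against wild-type females 0 of 44170 features passed (0.0%), and 4 of the 10 genes were higher at an unadjusted p under 0.05, against 2.35% of features higher and 5.15% in either direction. In Mim2 against wild-type males 7 were, against 10.9% higher and 23.5% in either direction. In Mim1 Cr2 differed by 2.55, Cxcr5 and Cxcl13 by 1.0 each, Tnfrsf13c by 0.96, Ltb by 0.88 and Madcam1 by 0.87.

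**Figure D2:**
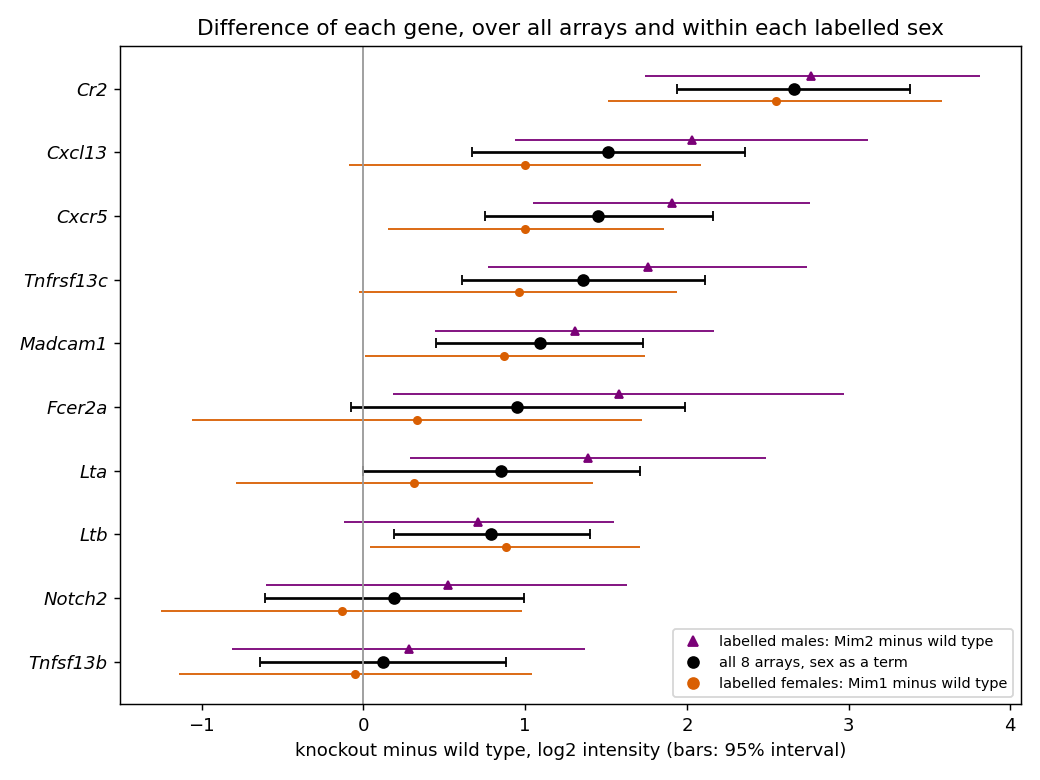
Difference of each gene, knockout minus wild type, in log2 intensity, with 95% intervals from limma, for labelled males (triangles), all 8 arrays (black) and labelled females (small circles). The intervals of Cr2 lie above 1 in all fits, and for Cxcr5 and Cxcl13 the male value is about 1 unit above the female value.

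The test of the difference between Mim2 and Mim1, each against wild type of the same label, called none of the 44170 features (0.0%), and 5872 or 13.3% had an unadjusted p under 0.05. None of the 10 genes had an unadjusted p under 0.05 in it. The difference of differences was above 0 for 9 of the 10, against 52.9% of features, with a median of 0.72 against 0.07. For Cr2 it was 0.23, with a 95% interval of -1.23 to 1.69, and for Fcer2a it was 1.24, with an interval of -0.73 to 3.21. Both Mim2 arrays read higher than both Mim1 arrays for 7 of the 10 genes, which held for 26.1% of features. For 6 of the 10 both Mim2 arrays lay above both Mim1 arrays and these above all wild-type arrays, against 2.64% of features. Without both Mim2 arrays, 6 genes still had every knockout array above every wild-type array, where 8.83% of features did, but only Cr2 at 2.55 and Cxcr5 at 1.0 kept an unadjusted p under 0.05. Between all arrays labelled male and all labelled female, 0 of 44170 features passed, and Cr2 alone of the 10 was at an unadjusted p under 0.05, with a difference of 0.75 (limma adjusted p = 0.551), against 9.04% of features.

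Other B cell genes also read higher on the knockout arrays. Of a list of 15 pan B cell genes 14 were measured, among them Blk, a kinase of antigen receptor signalling, and none passed the adjusted test. Of these 14, 12 were higher at an unadjusted p under 0.05 and 0 lower, with a median difference of 1.33. The list mean was 9.90 to 10.86 on knockout and 8.96 to 9.34 on wild-type arrays. Blk differed by 1.96, Pou2af1, a B cell coactivator, by 1.48, Fcrla by 1.75 and Ebf1, a B lineage transcription factor, by 1.78. The 2 without such a p were Btk at 0.50 and Pax5, also a B lineage transcription factor, at -0.20. Pax5 read 10.55 in WT-3, against 7.42 to 7.88 in the other wild-type animals. Among 14 T cell genes 9 were higher at an unadjusted p under 0.05 and 0 lower, with a list mean of 8.50 to 9.20 on knockout and 7.73 to 8.27 on wild-type arrays. The T cell median was 0.89, with Cd2 at 1.42 and Cd3g at 1.04. Of 10 red pulp and marginal zone genes, of macrophages, stroma and adhesion, 2, Vcam1 and Marco, were higher and 0 lower, with list means of 8.45 to 9.53 on knockout and 7.95 to 8.66 on wild-type arrays.

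The pan B cell mean was subtracted from each gene on each array to set it beside the other B cell genes. Cr2 then read -0.52 and -0.35 in the Mim1 and -0.40 and -0.20 in the Mim2 knockout animals, against -1.86, -1.08, -2.62 and -1.68 in WT-1 to WT-4. The genotypes still did not overlap. The difference relative to the pan B cell mean was 1.44 or 2.72-fold, with means of -0.37 ± 0.13 in knockout and -1.81 ± 0.63 in wild type (SD, n = 4, exact permutation p = 0.0286). It was 1.38 without the Mim2 arrays and 1.51 without the Mim1 arrays. Pax5, at 10.55 in WT-3, is part of the subtracted mean. Without WT-3 the Cr2 difference was 1.17, the lowest with 1 array left out. On the same scale Cxcr5 differed by 0.24 (exact permutation p = 0.0571), Cxcl13 by 0.30 (p = 0.314) and Tnfrsf13c by 0.14 (p = 0.543). Madcam1 differed by -0.13, Fcer2a by -0.26, Lta by -0.37 and Ltb by -0.42, with exact permutation p-values of 0.571, 0.486, 0.286 and 0.114. Notch2 read -2.82, -3.13, -3.77 and -3.21 in the knockout animals, against -2.65, -2.73, -1.54 and -1.89 in the wild-type animals. No knockout array reached the lowest wild-type array here, with a difference of -1.03 (exact permutation p = 0.0286). Tnfsf13b differed by -1.10 (exact permutation p = 0.0571). Since the pan B cell mean averaged 10.39 on knockout and 9.18 on wild-type arrays, the subtraction lowers every feature in the knockout, and 45.3% of all features lay below on every knockout array as Notch2 did. Only 14 of 44170 features, 0.0317%, stayed above on every knockout array, and Cr2 alone of the 10 genes was among them. With a further quantile normalization Cxcr5 also had an exact permutation p of 0.0286.

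**Figure D3:**
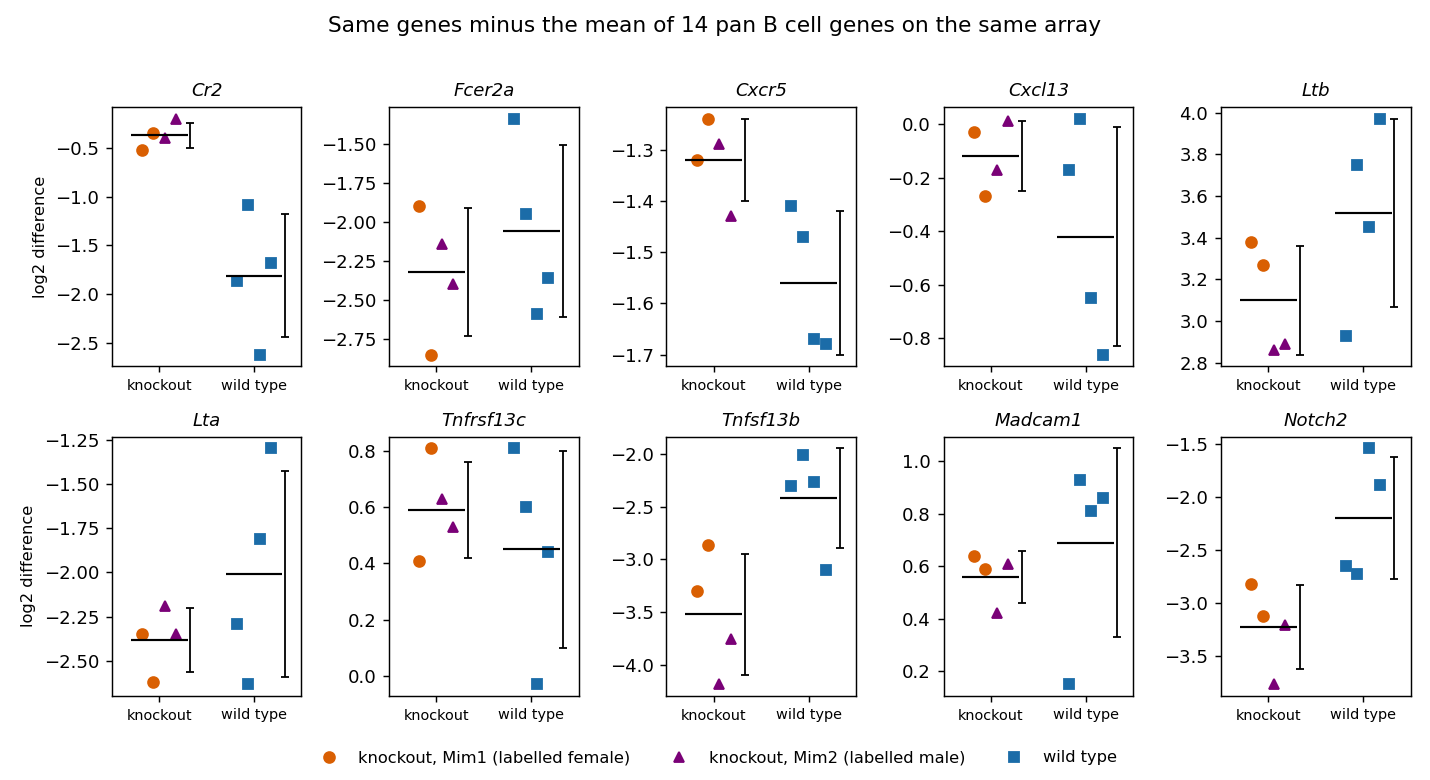
Log2 intensity of each gene minus the mean of 14 pan B cell genes on the same array, knockout left and wild type right, with group means and 1 SD (n = 4), each panel on its own axis. The knockout arrays lie above the wild-type arrays for Cr2 (-0.37 against -1.81) and below them for Notch2 (-3.23 against -2.20), and overlap for the other genes.

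The 2 arrays with the highest mean over the 10 genes were also the 2 with the lowest mammary mean. The mean of the 10 genes was 9.38 and 9.04 in the Mim1 and 9.83 and 9.72 in the Mim2 knockout animals, against 8.20 to 8.53 on the wild-type arrays. When limma also held the mammary mean as a covariate, Cr2 differed by 2.50 ± 0.71 (SE), at an unadjusted p of 0.00721 and an adjusted p of 0.726. Cxcr5 then differed by 0.61, Cxcl13 by 0.79, Tnfrsf13c by 0.58, Madcam1 by 0.78 and Ltb by 0.85, with none of the 5 at an unadjusted p under 0.05. In that fit 6.28% of features had such a p. Since the covariate has no overlap between the genotypes, it also removes genotype difference.

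**Figure D4:**
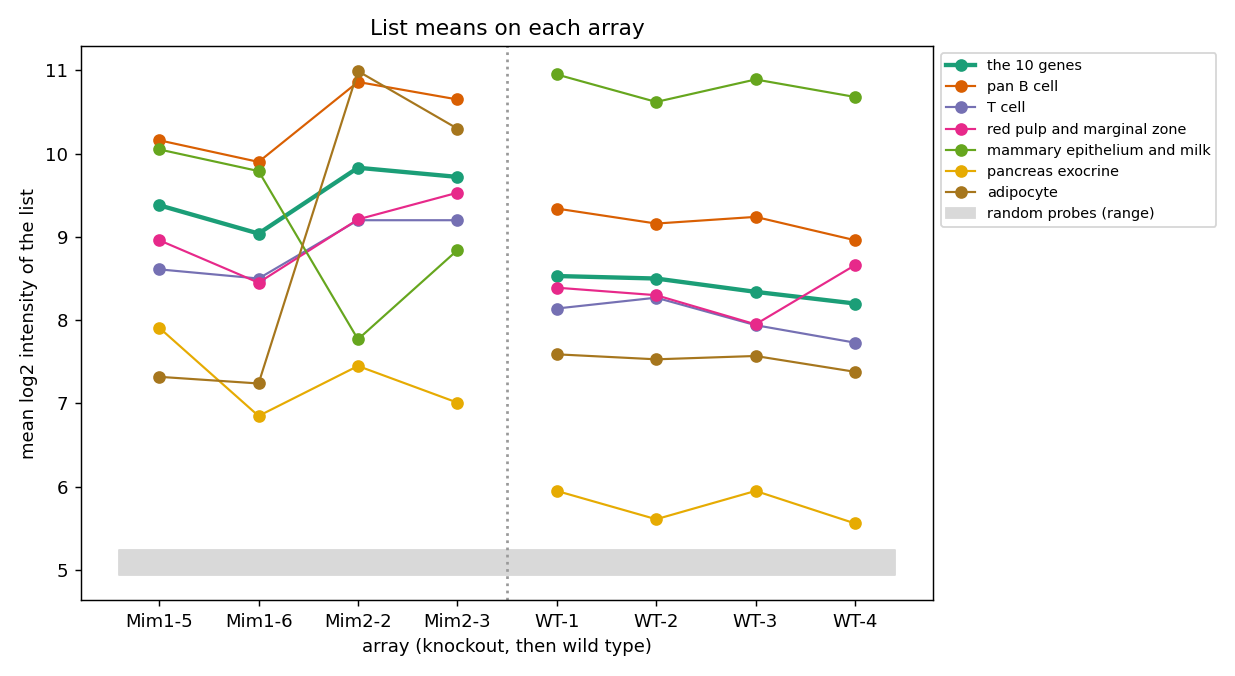
Mean log2 intensity of the 10 genes and of 6 marker lists on each array, knockout arrays left of the dotted line and wild-type arrays right of it, with the range of the random probes in grey. The 10 genes and the pan B cell, T cell and pancreas lists are higher on the knockout side, the mammary list is lowest in Mim2-2 at 7.77, and the adipocyte list is highest in Mim2-2 and Mim2-3.

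None of the other genes of these pathways passed the adjusted test, and counts at an unadjusted p under 0.05 stand beside 6.98% of all features higher and 6.88% lower, so that 1 gene of a short list is near that background. Of 10 measured lymphoid chemokine and migration genes 7 were higher at an unadjusted p under 0.05 and 0 lower, with a median of 0.85. Among them were S1pr1, the receptor that draws lymphocytes towards blood, at 1.23, Cxcl12, a stromal chemokine, at 1.38, and Gpr183, the oxysterol receptor that places B cells at the follicle's edge, at 0.89. Of 9 genes of the lymphotoxin and TNF route 1 was higher and 1 lower, with a median of 0.40. Traf3, a brake on the non-canonical NF-kappaB route, differed by 0.77, the TNF receptor Tnfrsf1a by -1.16, Tnf by 0.84 and Relb, a subunit of that route, by -0.72. Against wild type of the same label, Tnfrsf1a differed by -0.01 in Mim1 and by -2.31 in Mim2. Of 9 further genes of the BAFF and APRIL system 3 were higher and 1 lower, with a median of -0.27. Tnfrsf13b, the receptor TACI, differed by 1.61 and Bcl2, a survival gene, by 0.63, while Tnfsf13, the ligand APRIL, differed by -0.86. For Tnfsf13 the difference was -0.06 in Mim1 and -1.67 in Mim2, each against wild type of the same label. Of 16 genes of the Notch route 0 were higher and 3 lower, with a median of -0.06. The 3 lower were the Notch target genes Hey1 at -1.63 and Nrarp at -0.83 and the Notch partner Rbpj at -0.76. Other Notch target genes of the list did not fall alike, with Dtx1 at 0.60, Hes5 at 0.58 and Hes1 at -0.08. Hey1 read 11.85 and 11.18 in Mim1, 8.11 and 9.09 in Mim2, and 11.23 to 12.02 in wild type, so that its low values were those of the Mim2 arrays.

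Markers of the cells that carry these genes are read against the same shares. Of 7 follicular dendritic cell genes 3 were higher and 2 lower at an unadjusted p under 0.05, with a median of 0.77. Vcam1 and Icam1, adhesion molecules, differed by 1.27 and 0.77, and Clu, also secreted by many epithelia, by -1.97. Mfge8, the milk fat globule protein that follicular dendritic cells also make, differed by -1.08. Mfge8 read 10.82 and 11.85 in Mim1, 11.35 and 11.77 in Mim2, and 12.12 to 13.48 in wild type, without overlap. Of 8 genes of marginal zone stroma, addressin ligands and macrophages 4 were higher and 0 lower, with a median of 0.91, among them Marco, a scavenger receptor of marginal zone macrophages, at 0.92 and Itgb7, a chain of the MAdCAM-1 receptor, at 0.90. Of 6 marginal zone B cell genes 2 were higher and 1 lower, with Plac8 at 1.06, S1pr3 at 0.91, Cd1d1 at 0.72 and Cd9 at -1.38. Against wild type of the same label, Cd9 differed by -0.54 in Mim1 and by -2.22 in Mim2. Of 6 genes of transitional, B1 and follicular B cells 1 was higher and 1 lower, with Cd24a at -0.84. Of 7 genes of the CD21 coreceptor and its complement ligands 1 was higher and 1 lower, with Cd81 at -0.99, while C3, the source of the CD21 ligand C3d, differed by 0.87. Cd81 read 13.58 and 13.93 in Mim1, 11.75 and 12.51 in Mim2, and 13.65 to 14.14 in wild type, and here too the low values were those of the Mim2 arrays. Of 10 erythroid genes 0 were higher and 2 lower, with a median of -0.53. Against wild type of the same label, their median was -1.14 in Mim1 and -0.02 in Mim2. The list mean was 9.70 and 9.74 in Mim1, 10.51 and 10.69 in Mim2, and 10.46 to 10.72 in wild type. The low list means were thus those of the Mim1 arrays.

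**Figure D5:**
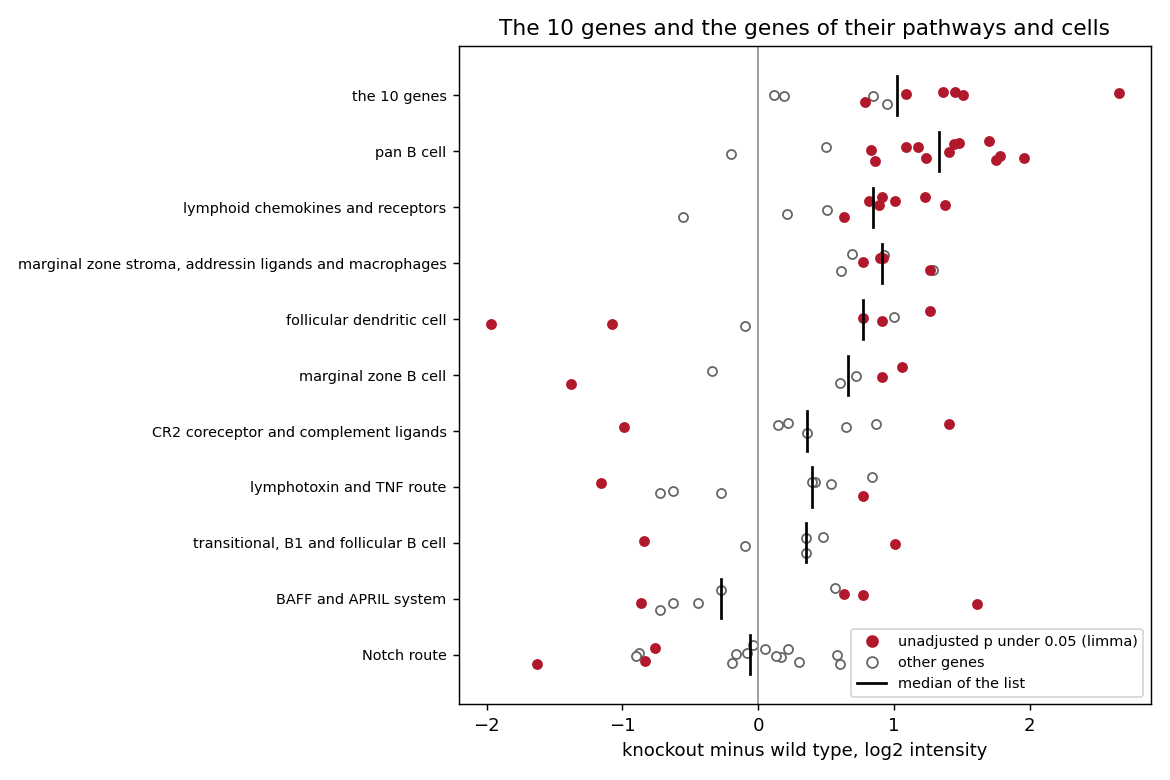
Difference of each measured gene, knockout minus wild type, in log2 intensity, for the 10 genes and 10 related lists, with filled points at an unadjusted p under 0.05 in limma and a bar at the list's median. The 10 genes (median 1.02) and pan B cell genes (1.33) lie mostly to the right, while the Notch route (-0.06) and the BAFF and APRIL system (-0.27) lie on both sides of 0.

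Profiles over the 8 arrays, each centred on its mean, were set against those of 15822 other named genes above the random probes on all arrays, with the root mean square difference as the measure of likeness. Nearest to Cr2 were Stk17b at 0.40, Blk at 0.43 and Malt1 at 0.43. Nearest to Cxcr5 were Prkcb at 0.13, Itpr1 at 0.14 and Gm4957 at 0.15, and nearest to Cxcl13 were Sla and Gpr18 at 0.14 each and Il16 at 0.15. Tnfrsf13c was nearest to Serpinb6b and Pla2g2d at 0.15 each and Cdt1 at 0.16, and Madcam1 to 9430038I01Rik at 0.12, Eps15 at 0.13 and Inadl at 0.14. The smallest distance of Cr2 was thus larger than those of the other 4. The measure is not scaled, so it also depends on the size of the genotype difference. That was 2.66 for Cr2 and 1.96 to 2.07 for its 3 nearest genes. Among the 10 genes themselves Cxcr5 and Tnfrsf13c differed by 0.18, Cxcr5 and Cxcl13 by 0.22 and Ltb and Madcam1 by 0.23. All these profiles share the 8 arrays and the offset between the genotypes.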

How the data were processed

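Total RNA was labelled with Cy3 and hybridised by the array maker's service, per the labels. The deposited array tables hold linear intensity values, 1 per feature, made with RMA per the submitters' processing notes, which give no version. RMA adjusts for background, equalises the arrays and combines the probes. The headers give 3 probes for 44155 of 44170 features and positions in build MM9. The entry for 5000 random probes was kept out of tests and served as background. A table of the series, also deposited, held 21856 of these features with equal intensities within a relative tolerance of 1e-06. Of 24203 Entrez numbers 21583 matched the RefSeq table of GRCm38.p6, and gene names are those of the array.

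Log2 intensity was fitted with limma 3.58.1 (lmFit, eBayes) under R 4.3.3 with labelled sex as an additive term. Tests were two-sided, and p-values were adjusted by Benjamini-Hochberg across the 44170 features, with 0.05 as threshold. An interaction of genotype and labelled sex gave the differences within each label. Exact permutation tests used all 70 arrangements of the 8 arrays. The brightest feature by mean log2 intensity stood for a gene. All 10 genes are named. Of each further list at most 4 genes with the smallest p are named, plus genes a result turns on or that read otherwise, and the 3 nearest profiles. A few list genes within this rule are left unnamed and not reported here. The 10 genes and the lists were chosen with earlier results of these data known. Genes of other lists not named on the array are not analysed here. The limma step was tested on simulated data. The number of arrays limits the precision.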

Additional observations from a re-analysis of the deposited data

Results flagged for a closer look

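Among 20 groups of 4 arrays, 10 genes in 2 genotypes, 1 had an array far from the others. Tnfsf13b read 5.86 in WT-4, against 6.97 to 7.15 in the other 3 wild-type animals, and the gap was 0.861 of the group's range. Chance flags about 1 in 20 such groups. Without WT-4 the knockout minus wild type difference of Tnfsf13b was -0.17, against 0.12 with it.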

How the results depend on the processing

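The differences of Cr2, Cxcr5, Cxcl13 and Tnfrsf13c stayed above 0 under every alternative run. No feature passed between knockout and wild type when 1 array was left out (0 in each case), and the count of the 10 genes at an unadjusted p under 0.05 was then 5 to 8, against 6. Without both Mim2 arrays it was 2 and with the mammary mean as a term 1. A trend with robust variances called 16 features, 7 higher and 9 lower, and leaving out both Mim1 arrays 263, of which 240 were lower. The interaction count of 0 became 311 of 21856 features on the series table and 578 of 44170 with trend and robust variances. The 1875 calls in labelled males became 4830 of 21856 features on the series table and 4266 of 44170 with trend and robust variances. Both of these runs called Cr2, Cxcr5, Cxcl13, Tnfrsf13c and Madcam1. Array weights gave 1041 calls in labelled males. The series table holds equal intensities, so its runs differ in the set of features tested. The cause of the other shifts was not tested. The alternatives for labelled males, for the exact tests and for arrays without overlap were chosen after seeing the data. So was leaving out 1 array for Cr2 relative to the pan B cell mean.

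Signs turned for 6 genes. With the mammary term Fcer2a was -0.04, Lta -0.06, Tnfsf13b -0.06 and Notch2 -0.01. Without both Mim2 arrays Tnfsf13b was -0.05 and Notch2 -0.13, and with array weights Tnfsf13b was -0.01. Leaving out 1 array gave -0.003 (without WT-2) to 0.46 for Notch2 and -0.17 (without WT-4) to 0.34 for Tnfsf13b, with 0.52 (without WT-2) to 1.07 for Lta. With the pan B cell mean subtracted Fcer2a was -0.26, Ltb -0.42, Lta -0.37, Tnfsf13b -1.10, Madcam1 -0.13 and Notch2 -1.03. Other features gave -0.24 and -0.17 for Tnfsf13b and -0.36 for Fcer2a. No paired analysis was possible because the numbers of the knockout and wild-type animals name animals and pair none.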
